A study of Mus musculus with 8 samples.

Results

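Colony cells that formed on endothelial cells were compared with control macrophages, both grown from mouse bone marrow. The comparison takes 4 of the 8 arrays of the series, namely 2 of colony cells (titles CC-1 and CC-2) and 2 of control macrophages (BMDM-1 and BMDM-2). Colony cells had spent 7 days on an endothelial monolayer in HSC media, a medium whose name refers to haematopoietic stem cells. Control macrophages had spent 7 days on a dish with M-CSF, the macrophage growth factor, and were kept in control media. The other 4 arrays, 2 of macrophages given IL-4 and 2 of macrophages given LPS for 24 hours, entered the same statistical model and stand beside the comparison where activation genes are described. All 8 samples, controls included, are labelled with the transgene Tg(CAG-DsRed*MST)1Nagy on the congenic background B6.Cg, which places the red fluorescent protein DsRed under the broadly active CAG promoter. Genes were members where they were well above background on both arrays of colony cells or on both arrays of control macrophages, which held for 25446 of the 26504 genes tested in the series.

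Several features limit the groups as models. Substrate and medium differ together between the groups, so their parts cannot be told apart. The source of the endothelial cells, and whether colonies were lifted off that layer before RNA was extracted, are not given in the labels, nor are the sex and age of the mice. Nothing states that the replicates were separate animals or cultures, so every p-value measures only the spread between these samples, which may be technical. The RNA is bulk RNA, in which fewer cells of a type and less RNA per cell cannot be told apart.

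Macrophages arise from bone marrow progenitors under M-CSF, which binds the receptor CSF1R, while the transcription factor PU.1 (gene Spi1) sets up much of the myeloid program. IL-4 drives alternative activation, marked in mice by arginase 1, the resistin-like protein RELM-alpha and chitinase-like proteins. LPS drives classical activation, marked by inflammatory cytokines and inducible nitric oxide synthase. In bone marrow, endothelial and stromal cells form niches that hold blood progenitors through adhesion molecules and secreted factors such as CXCL12 and KIT ligand. Mesothelial cells line the body cavities and make mesothelin, keratins and the transcription factor WT1.

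Levels below are scaled signals, that is, the background-subtracted signal of a gene's probe with the 75th percentile of its array set to 100. They compare arrays, not genes, because probes differ in brightness. A log2 fold change is colony cells over control macrophages, from 2 arrays per group, and "called" means an adjusted p under 0.05 by limma. Its standard error, given after ±, comes from the fit to all 8 arrays. That error therefore also holds the spread within the IL-4 and LPS groups. On this scale the lowest signal well above background was 1.20 and 1.31 on the colony arrays and 1.47 and 1.60 on the control arrays. Where a gene was not well above background on either array of a group, its fold is given as "at least", against that lowest signal or the gene's own, whichever was higher on an array.

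The profiles of the groups lay far apart. Pearson r across genes, which are not independent replicates, was 0.996 between the colony arrays and 0.995 between the control arrays, but 0.850 to 0.852 between arrays of different groups. Of 26504 genes, 71.4% were called, 24.7% higher and 46.7% lower in colony cells, and the median gene had a log2 fold change of -0.35. The arrays of the groups did not overlap for 87.5% of genes. With so many genes called, a list is read below by its direction and size beside these shares. Well above background on both colony arrays and on neither control array were 1547 genes, 172 of them at least 100-fold higher in colony cells. The opposite held for 551 genes, of which 9 were at least 100-fold lower.

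Leukocyte transcripts as a class were lower in colony cells. Of 24 pan-leukocyte genes, 23 fell and 1 rose, with a median log2 fold change of -3.11, or 11.6% of control. The summed scaled signal of the list was 22610 and 23296 on the colony arrays, against 105979 and 107604 on the control arrays. Ptprc, which codes for the leukocyte surface phosphatase CD45, read 152 and 142 in colony cells, against 1602 and 1883 in control macrophages (-3.57 ± 0.10, adjusted p = 2e-06). Spi1 read 21.4 and 18.9 in colony cells, against 205 and 243 in control macrophages (-3.47 ± 0.16). Both genes were lower on every colony array than on either control array. The exception of the list was Srgn, which codes for the granule proteoglycan serglycin and read 6725 and 7042 in colony cells, against 2529 and 2206 in control macrophages (1.54 ± 0.12, adjusted p = 0.00012).

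Genes of the sex chromosomes moved as well. The Y-linked helicase gene Ddx3y read 36.4 and 34.6 in colony cells, against 286 and 269 in control macrophages (-2.97 ± 0.07). All 4 Y genes fell, with a summed signal of 124 and 131 in colony cells, against 973 and 868 in control macrophages. Xist, the RNA that silences an X chromosome in female cells, read 184 and 172 in colony cells, against 1.02 and 0.51, not well above background, in control macrophages, at least 116-fold higher (adjusted p = 1e-04). The medians of the Y (-2.90) and pan-leukocyte (-3.11) lists lay 0.22 apart on the log2 scale. Kdm5d was not well above background in colony cells, and with it at its bound the Y median was -2.66. The part of cells other than marrow leukocytes in the results below was not tested. The pan-leukocyte median is given beside them only as a reference, since members of that list ran from -4.48 (Myo1f) to 1.54 (Srgn).

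**Figure D1:**
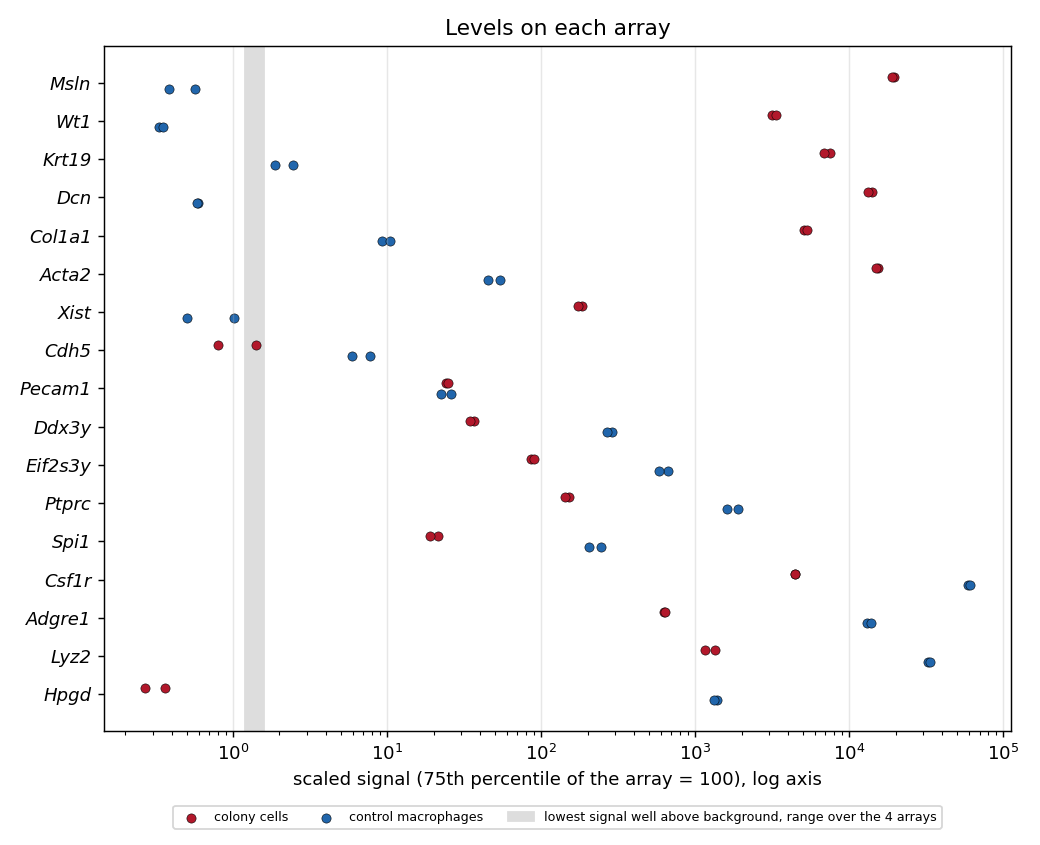
Scaled signal on each array (log axis, 75th percentile of the array at 100) for genes of mesothelium, fibroblasts, smooth muscle, sex chromosomes, endothelium and macrophages, with colony cells drawn above control macrophages in each row and a point per array. The grey band is the lowest signal well above background. Msln, Wt1 and Dcn lie at 3170 or more on the colony arrays and left of the band on the control arrays, Hpgd lies the opposite way, and Pecam1 overlaps.

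Markers that define endothelium were not raised together, although the colony samples carry the treatment label endothelial cells. Cdh5, which codes for VE-cadherin, the junction protein of endothelium, was not well above background on the colony arrays (1.4 and 0.79), against 7.76 and 5.93 on the control arrays, at least 5.02-fold lower (adjusted p = 0.00046). Pecam1 (CD31) read 24.1 and 24.9 in colony cells, against 22.4 and 26.1 in control macrophages, and did not pass the test (0.02 ± 0.09, adjusted p = 0.88). Tie1, Erg, Emcn, Sox17, Sox18 and Prox1 were not well above background on both arrays of any of the 4 groups. Of the 23 listed endothelial genes that were tested, 10 rose, 9 fell and 4 were not called (median 0.84, or 0.59 with bounds). Well above background on both colony arrays and on neither control array were 7 of the 23, beside 1547 of all 26504 genes. The opposite held for 1 of the 23, beside 551 of all genes. The summed signal of the list was 4652 and 4747 in colony cells, against 4947 and 5573 in control macrophages. Among those that rose were Esam, an adhesion molecule gene (645 and 755 in colony cells, against 1.11 and 0.32 in control macrophages, at least 455-fold higher), and Cd34 (2087 and 2172 in colony cells, against 19.2 and 20.2 in control macrophages, 6.76 ± 0.21), a gene that progenitors and stromal cells also use. Vwf, which codes for von Willebrand factor, fell to 76.2 and 75.6 in colony cells, against 1403 and 1623 in control macrophages (-4.31 ± 0.09). Its other probe gave -2.13.

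Markers of mesothelium were raised as a block. Of 24 mesothelial genes, 23 rose and none fell, with a median log2 fold change of 9.92, or 9.53 with the genes dim in control macrophages at their bounds. The summed signal of the list was 66285 and 66442 in colony cells, against 364 and 343 in control macrophages. Msln, which codes for mesothelin, read 19610 and 18870 in colony cells, against 0.56 and 0.38 in control macrophages. Wt1, the transcription factor gene of mesothelium and kidney podocytes, read 3170 and 3353 in colony cells, against 0.33 and 0.35 in control macrophages, at least 2128-fold higher (adjusted p = 4.5e-07). None of the control values of these genes was well above background. Krt19, a keratin gene, had the largest rise of the genes whose probe was well above background on all 4 arrays. It read 7506 and 6804 in colony cells, against 1.87 and 2.43 in control macrophages (11.71 ± 0.35, adjusted p = 2.7e-06). Pdpn, which codes for podoplanin, read 6050 and 6533 in colony cells, against 5.32 and 5.17 in control macrophages (10.23 ± 0.23). The retinoic acid enzyme gene Aldh1a2 was the exception (4.55 and 3.56 in colony cells, against 3.29 and 3.12 in control macrophages, 0.33 ± 0.17, adjusted p = 0.12), and Calb2 did not pass the filter on dim probes.

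The probes behind the largest differences are shown because each such value rests on 60 bases of complementary DNA. Msln, Arg1 and Dcn had some of the highest bounds in colony cells, Hpgd and Spic the highest in control macrophages, and Ms4a4a the largest fall among genes whose probe was well above background on all 4 arrays. Coordinates come from the array files (mouse, mm9). Without gene models for that build here, the part of the gene under each probe is not given.
Msln, chr17:25885569-25885628, minus strand: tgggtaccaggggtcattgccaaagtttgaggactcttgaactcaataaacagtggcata
Arg1, chr10:24636194-24636253, minus strand: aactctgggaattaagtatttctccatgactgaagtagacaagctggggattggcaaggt
Dcn, chr10:96980233-96980292, plus strand: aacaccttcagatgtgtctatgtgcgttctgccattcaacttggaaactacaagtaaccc
Hpgd, chr8:58799399-58799458, plus strand: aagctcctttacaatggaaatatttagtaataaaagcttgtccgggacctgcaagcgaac
Spic, chr10:88138053-88138112, minus strand: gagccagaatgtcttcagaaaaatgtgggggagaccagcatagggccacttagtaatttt
Ms4a4a, chr19:11467221-11467280, plus strand: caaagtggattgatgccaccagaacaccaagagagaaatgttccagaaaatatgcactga

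Matrix genes of fibroblasts and mural cells rose with the mesothelial ones. Of 23 fibroblast genes, 21 rose, 1 fell and 1 was not called (median 5.59). Of 33 genes of fibrillar and basement membrane matrix, 25 rose, 3 fell and 5 were not called (median 6.0, or 6.31 with bounds). Dcn, the gene of the collagen-binding proteoglycan decorin, read 14030 and 13290 in colony cells, against 0.59 and 0.59, not well above background, in control macrophages. Col3a1, which codes for type III collagen, read 5659 and 5668 in colony cells, against 2.18 and 2.66 in control macrophages (11.20 ± 0.27, adjusted p = 1.3e-06). Fbln2, an elastic fibre gene, rose by 11.28 ± 0.26 and the fibronectin gene Fn1 by 10.18 ± 0.18. The basement membrane collagen gene Col4a1 was at least 1256-fold higher.

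The probes that stand for the chains of type I collagen did not move together. Col1a1 read 5111 and 5319 in colony cells, against 9.21 and 10.4 in control macrophages (9.06 ± 0.21). Col1a2, which codes for the partner chain, read 23.1 and 22.1 in colony cells, against 37.3 and 47.9 in control macrophages (-0.90 ± 0.14, adjusted p = 0.0019). On the same probe IL-4 macrophages read 24.1 and 25.4, and LPS macrophages 20.7 and 23.6. How well this probe reports the transcript was not tested. Col18a1 and Col15a1, genes of basement membrane collagens, were also lower in colony cells than in control macrophages, by a log2 fold change of -1.09 ± 0.09 and by at least 3.05-fold.

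Contractile genes followed. In the smooth muscle and pericyte list, 14 of 17 rose and 2 fell (median 5.04). Acta2, which codes for smooth muscle actin, read 15350 and 14930 in colony cells, against 45.4 and 54.2 in control macrophages (8.25 ± 0.10, adjusted p = 4.5e-07). The actin-binding gene Cald1 was at least 546-fold higher and the myosin light chain gene Myl9 rose by 6.89 ± 0.11. The gene Mcam had 2 probes that disagreed. The brighter one, which stands for the gene, gave -2.12, and the other gave 5.38. Of 18 epithelial junction genes, 13 rose and 3 fell, with the tight junction gene Tjp1 at least 424-fold higher, while the claudin gene Cldn7 (-1.48 ± 0.09) and the splicing regulator gene Esrp1 (-0.79 ± 0.09) fell. Epcam, Cldn1, Cldn3, Grhl2 and Ovol1 did not pass the filter.

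Genes that act on matrix, listed as matrix proteases and inhibitors, rose almost without exception. Of 28 matrix proteases and inhibitors, 27 rose and 1, the metalloproteinase gene Mmp19, fell (-0.83 ± 0.10). Timp3, which codes for an inhibitor of metalloproteinases, read 6237 and 6990 in colony cells, against 5.25 and 3.99 in control macrophages (10.49 ± 0.54). Mmp2, the gene of a gelatinase of stromal cells, read 1140 and 1001 in colony cells, against 3.65 and 4.89 in control macrophages (7.98 ± 0.27). Mmp9, the gene of the gelatinase of neutrophils and other leukocytes, read 84.8 and 77.0 in colony cells, against 1.48 and 1.87 in control macrophages, where 1 of 2 arrays was well above background (5.60 ± 0.18). The collagen chaperone gene Serpinh1 rose by 9.59 ± 0.40, and the plasminogen activator gene Plat was at least 286-fold higher.

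**Figure D2:**
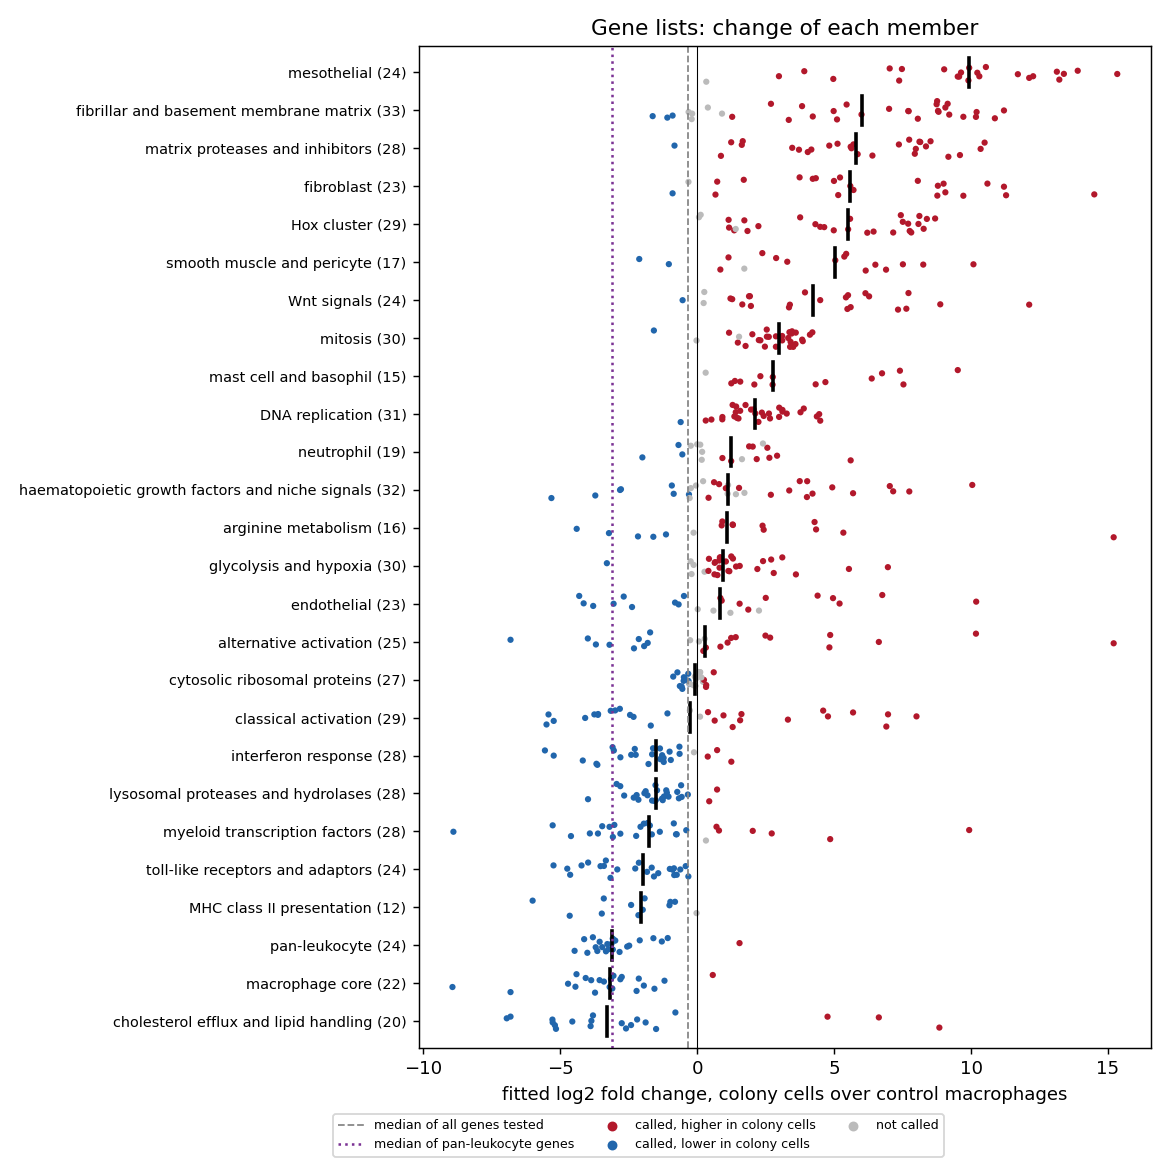
Fitted log2 fold change, colony cells over control macrophages, of each tested member of 26 gene lists, 1 point a gene, with the number of tested members in brackets. Black bars are list medians, the dashed line is the median of all genes (-0.35) and the dotted line that of pan-leukocyte genes (-3.11). The medians of the stromal and proliferation lists lie right of both lines, and those of the macrophage lists lie left of the dashed line. Genes dim in 1 group are drawn at their fitted value, which is no bound.

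Genes that define macrophages fell, with a median near that of pan-leukocyte genes. Of 22 macrophage core genes, 21 fell and 1 rose (median -3.18), and 12 of the 22 lay below the pan-leukocyte median. Csf1r read 4466 and 4465 in colony cells, against 58540 and 60400 in control macrophages. Mertk, which codes for a receptor for apoptotic cells, read 50.6 and 44.8 in colony cells, against 975 and 1111 in control macrophages (-4.45 ± 0.10). Cd36, the gene of a receptor for oxidised lipid, read 22.6 and 20.1 in colony cells, against 2698 and 2151 in control macrophages (-6.82 ± 0.16). The scavenger receptor gene Msr1 was the exception, with 439 and 482 in colony cells, against 330 and 293 in control macrophages (0.57 ± 0.09). With the mean of all its probes Msr1 was not called.

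Several macrophage genes fell well past the pan-leukocyte median. Hpgd, which codes for the enzyme that inactivates prostaglandins, read 0.27 and 0.36, not well above background, in colony cells, against 1394 and 1326 in control macrophages. Spic, the transcription factor gene of iron-recycling macrophages, read 0.69 and 0.50 in colony cells, also not well above background, against 300.4 and 266 in control macrophages. The Ms4a family, a cluster of tetraspanning membrane protein genes, gave 4 of the 24 lowest genes that the naming rule drew. Ms4a4a read 3.71 and 4.68 in colony cells, against 2358 and 2365 in control macrophages, Ms4a14 fell by 7.51 ± 0.14 and Ms4a7 by 7.28 ± 0.07, and Ms4a6b was at least 131-fold lower. Aif1, which codes for the actin-bundling protein IBA1, read 28.2 and 31.1 in colony cells, against 8132 and 7649 in control macrophages (-8.06 ± 0.09). Cd5l, a secreted survival factor gene of macrophages, read 37.3 and 32.5 in colony cells, against 6616 and 6303 in control macrophages (-7.54 ± 0.11). The lectin receptor genes Clec4a1 (-8.93 ± 0.11) and Clec4a3 (-8.09 ± 0.21) were lower by a similar amount.

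Most transcription factors of myeloid cells fell. Of 28, 21 fell, 6 rose and 1 was not called (median -1.77, against -3.11 for pan-leukocyte genes). Of the 28, 21 lay above the pan-leukocyte median and 7 below it. Nr1h3, which codes for the oxysterol receptor LXR-alpha, read 20.1 and 21.2 in colony cells, against 840 and 769 in control macrophages (-5.28 ± 0.08). Pparg, the gene of a fatty acid receptor of macrophages and fat cells, fell by 4.61 ± 0.10. The interferon regulatory factor gene Irf8, needed for monocytes and dendritic cells, read 614 and 640 in colony cells, against 5375 and 5251 in control macrophages (-3.08 ± 0.07). Gata6, a factor of both mesothelium and peritoneal macrophages, was at least 456-fold higher, and Klf4 rose by 4.85 ± 0.11.

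Effector genes of macrophages fell as groups. Above the pan-leukocyte median of -3.11 lay 15 of 24 toll-like receptor and adaptor genes and 5 of 11 phagocyte oxidase and lysozyme genes. So did 8 of 12 genes of MHC class II presentation and 14 of 20 Fc and complement receptor genes. All 24 toll-like receptor and adaptor genes fell (median -1.99), with Unc93b1, the chaperone gene of endosomal receptors, at -4.75 ± 0.09. Of 11 phagocyte oxidase and lysozyme genes, 10 fell (median -3.14), and Cybb, the gene of the oxidase's catalytic subunit, read 31.4 and 28.2 in colony cells, against 1109 and 1278 in control macrophages (-5.32 ± 0.10). Of 12 genes of MHC class II presentation, 11 fell (median -2.07). The thiol reductase gene Ifi30 was not called (1013 and 928 in colony cells, against 961 and 1017 in control macrophages, adjusted p = 0.75). Of 20 Fc and complement receptor genes, 17 fell and 3 rose. The inhibitory receptor gene Fcgr2b rose (1735 and 1997 in colony cells, against 1292 and 1061 in control macrophages, 0.67 ± 0.14). So did Vsig4, whose direction turned under normexp background correction, and Itgam, whose direction turned with the mean of all probes.

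Most lysosomal and lipid efflux genes fell, and cholesterol synthesis genes were mixed. Of 28 lysosomal genes, 26 fell and 2 rose (median -1.49, against -3.11 for pan-leukocyte genes). The acid lipase gene Lipa read 483 and 478 in colony cells, against 6570 and 8882 in control macrophages (-3.99 ± 0.15), while the cathepsin genes Ctsk (0.72 ± 0.11) and Ctsl (0.44 ± 0.09) rose. Of 20 genes of cholesterol efflux and lipid handling, 17 fell and 3 rose (median -3.28). Cyp27a1, which codes for the sterol 27-hydroxylase, read 1.94 and 1.85 in colony cells, against 231 and 241 in control macrophages (-6.96 ± 0.23). The desaturase gene Scd1 was at least 169-fold higher. Of 24 cholesterol synthesis genes, 10 rose, 5 fell and 9 were not called. Srebf2, the gene of their regulator, had 2 probes that disagreed. The brighter one, which stands for the gene, fell by 3.42 ± 0.10, and the other gave -0.02. Of 17 iron and haem genes, 12 fell and 3 rose, with the iron exporter gene Slc40a1 at 34.3 and 55.9 in colony cells, against 5488 and 5110 in control macrophages (-6.92 ± 0.22). Of 21 scavenger and apoptotic cell receptor genes, 14 fell and 6 rose. The oxidised LDL receptor gene Olr1 was at least 148-fold higher. Tyro3, a kinase gene of the MERTK family, rose by 5.88 ± 0.14 on the probe that stands for it, while its other probe gave 0.32.

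Mast cell and basophil genes were higher. Of 15 mast cell and basophil genes, 14 rose and none fell (median 2.76, or 2.73 with bounds). Cpa3, the mast cell carboxypeptidase gene, read 336 and 343 in colony cells, against 0.61 and 0.36 in control macrophages, at least 221-fold higher (adjusted p = 1.7e-06). The control values were not well above background, and the same held for Fcer1a, which codes for the high-affinity IgE receptor (61.1 and 66.1 in colony cells, at least 41.5-fold higher), Cma1, a chymase gene (at least 45.3-fold higher), Mcpt8, a basophil protease gene (at least 28.8-fold higher), and Gata2, a transcription factor gene of progenitors and mast cells (at least 25.6-fold higher). Kit, which codes for the stem cell factor receptor of mast cells and progenitors, did not pass the test (10.3 and 8.60 in colony cells, against 6.54 and 8.84 in control macrophages, 0.31 ± 0.23, adjusted p = 0.27). The summed signal of the list was 994 and 1005 in colony cells, against 123 and 110 in control macrophages.

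Neutrophil genes were mixed. Of 19, 9 rose, 3 fell and 7 were not called, and all 19 lay above the pan-leukocyte median. The summed signal of the list was 16177 and 17785 in colony cells, against 22188 and 21180 in control macrophages. Genes of primary granules, made at the promyelocyte stage, gave Ctsg (cathepsin G) 221 and 224 in colony cells, against 32.5 and 26.7 in control macrophages (2.91 ± 0.17), and Prtn3 (proteinase 3) 33.7 and 29.4 in colony cells, against 5.19 and 5.49 in control macrophages (2.56 ± 0.09). Elane, which codes for neutrophil elastase of the same granules, went the other way with 442 and 402 in colony cells, against 1826 and 1570 in control macrophages (-2.01 ± 0.10). S100a8, an abundant calprotectin gene of mature neutrophils, did not pass the test (652 and 677 in colony cells, against 739 and 601 in control macrophages, adjusted p = 0.98), and its control values enclosed the colony values.

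Of 8 eosinophil genes, 3 rose and 2 fell. The peroxidase gene Epx was at least 13-fold higher and the major basic protein gene Prg2 read 185 and 187 in colony cells, against 33.9 and 29.1 in control macrophages (2.57 ± 0.15), while the eotaxin receptor gene Ccr3 fell by 4.77 ± 0.14. Of 13 monocyte genes, 7 rose and 6 fell. Among those that fell was Ms4a6c (-5.22 ± 0.10). Of 17 stem and progenitor genes, 9 rose, 3 fell and 5 were not called. Mycn was at least 103-fold higher and Procr, the endothelial protein C receptor gene, rose by 4.17 ± 0.09, while the haematopoietic regulator genes Tal1 (-4.15 ± 0.10) and Lmo2 (-2.65 ± 0.10) fell. Of 14 erythroid and megakaryocyte genes, 7 rose and 5 fell, of 14 dendritic cell genes 4 rose and 9 fell, and of 11 B, T and NK cell genes 1 rose and 9 were called lower. All 6 adipocyte genes tested were called lower. Cd2 of the B, T and NK list and Adipoq of the adipocyte list, both among those called lower, were not well above background on any of the 4 arrays, so their order is not known. Of 15 leukocyte integrin and adhesion genes, 2 rose and 12 fell, the integrin alpha 4 gene Itga4 by 5.67 ± 0.11. Of 20 matrix integrin and adhesion genes, 12 rose and 7 fell.

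**Figure D3:**
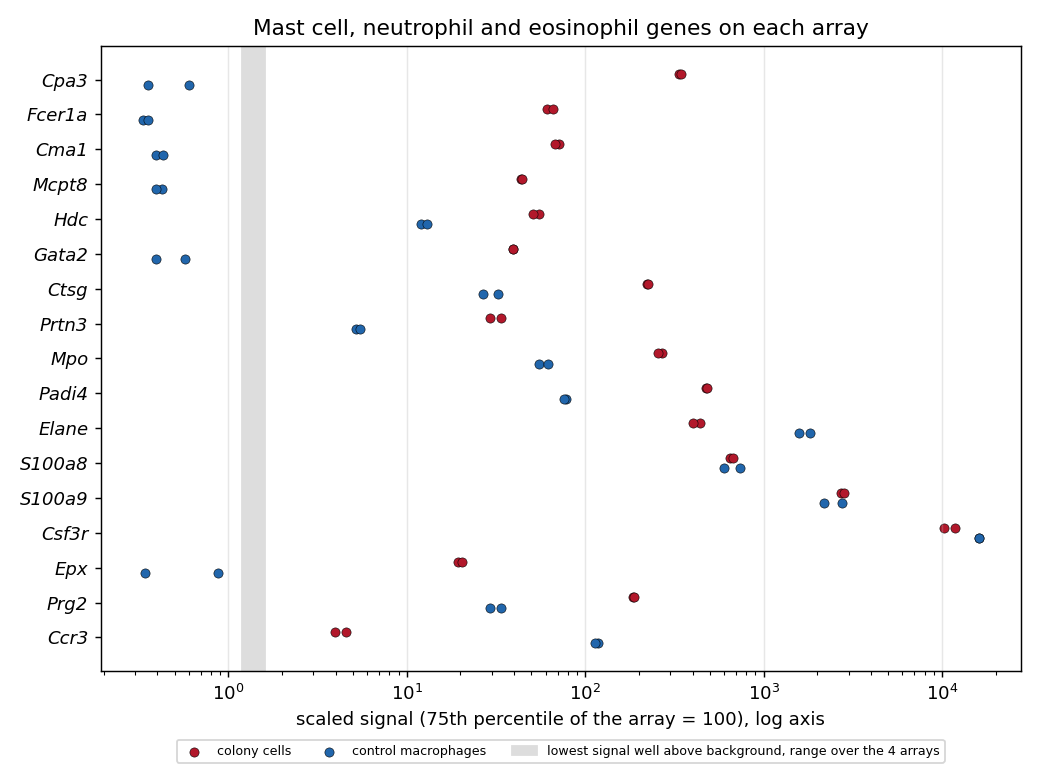
Scaled signal on each array (log axis) for mast cell and basophil genes (Cpa3 to Gata2), neutrophil genes (Ctsg to Csf3r) and eosinophil genes (Epx to Ccr3), with colony cells drawn above control macrophages in each row and a point per array. Cpa3 is at 336 and 343 in colony cells and below the grey background band in control macrophages, S100a8 overlaps between the groups, and Elane and Ccr3 lie lower in colony cells.

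Alternative activation genes did not move as a block. Of 25, 13 were called higher, 9 lower and 3 not called in colony cells against control macrophages. Tmem26, called lower, was not well above background on any of the 4 arrays. The same list against the same control arrays gave 21 rises and 2 falls in macrophages given IL-4, where 9.83% of all genes rose and 9.12% fell. Directly against IL-4, 6 were higher and 16 lower in colony cells, beside 24.3% and 47.3% of all genes and 71.6% called in either direction. Arg1, which codes for arginase 1, read 15250 and 15860 in colony cells, 664 and 711 in IL-4 macrophages, 248 and 241 in LPS macrophages, and 0.40 and 0.42, not well above background, in control macrophages. It was 4.50 ± 0.07 higher on the log2 scale in colony cells than in IL-4 macrophages (adjusted p = 5.8e-07). Retnla, the RELM-alpha gene and the classical IL-4 target, read 2.90 and 2.09 in colony cells, 58900 and 63940 in IL-4 macrophages, 1.21 and 4.0 in LPS macrophages, and 0.37 and 0.41 in control macrophages. It was 14.61 ± 0.54 lower in colony cells than in IL-4 macrophages (colony minus IL-4, -14.61, adjusted p = 6.2e-06). Against control it was at least 1.61-fold higher (adjusted p = 0.0061), a direction that turned under normexp.

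Other members show how the conditions differed. Fn1 read 16440 and 16760 in colony cells, 588 and 578 in IL-4 macrophages, and 12.2 and 16.8 in control macrophages. Klf4, the gene of a transcription factor induced by IL-4, read 2396 and 2731 in colony cells, 624 and 660 in IL-4 macrophages, and 93.9 and 83.2 in control macrophages. Both were higher on each colony array than on any IL-4 or control array. Fn1 is also counted in the matrix and monocyte lists above, and Klf4 among the myeloid transcription factors. Myc read 379 and 407 in colony cells, 391 and 434 in IL-4 macrophages, and 77.4 and 63.1 in control macrophages. It did not pass the test between colony cells and IL-4 macrophages (-0.07 ± 0.12, adjusted p = 0.63). Ch25h, the cholesterol 25-hydroxylase gene, read 738 and 793 in colony cells, 3.07 and 2.80 in IL-4 macrophages, 969 and 1013 in LPS macrophages, and 9.08 and 6.56 in control macrophages, and so rose in colony cells and fell with IL-4. Irf4, a factor of the IL-4 response, read 8.05 and 7.70 in colony cells, 608 and 542 in IL-4 macrophages, and 68.0 and 77.6 in control macrophages (colony against IL-4, -6.19 ± 0.16). The immediate early factor gene Egr2 read 82.0 and 96.4 in colony cells, 4592 and 4914 in IL-4 macrophages, and 316 and 308 in control macrophages (colony against IL-4, -5.74 ± 0.10). The checkpoint ligand gene Pdcd1lg2 read 2.46 and 2.28 in colony cells, 348 and 367 in IL-4 macrophages, and 13.3 and 10.4 in control macrophages. These 3 genes were lower in colony cells than in control macrophages, where IL-4 raised them.

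Genes of arginine metabolism were raised more often than lowered. Of 16 arginine metabolism genes, 10 rose and 5 fell (median 1.10). The cationic amino acid transporter gene Slc7a2 read 120 and 116 in colony cells, against 2.63 and 3.25 in control macrophages (5.33 ± 0.12), and Slc7a1 read 3480 and 3487 in colony cells, against 149 and 199 in control macrophages (4.34 ± 0.15). Downstream of arginase, the ornithine decarboxylase gene Odc1 (2.42 ± 0.08) and the spermidine synthase gene Srm (2.38 ± 0.09) rose, while the spermine synthase gene Sms (-1.61 ± 0.07) fell. Ass1, which codes for the enzyme that starts arginine resynthesis from citrulline, read 2249 and 2154 in colony cells, against 111 and 115 in control macrophages (4.28 ± 0.10), and Asl, for the next step, fell (-1.14 ± 0.08). Arg2, the mitochondrial isoform, read 0.47 and 0.91, not well above background, in colony cells, against 15.6 and 12.4 in control macrophages, at least 11.1-fold lower (adjusted p = 7.2e-05). The exporter gene Slc7a7 fell by 3.23 ± 0.08 and the polyamine acetyltransferase gene Sat1 by 2.17 ± 0.14.

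Classical activation genes were split as well. Of 29, 13 were called higher, among them Il12b, which was not well above background on any of the 4 arrays, and 14 lower in colony cells, against 27 rises and 2 falls in LPS macrophages over the same control arrays, where 54.6% of all genes were called, 28.9% higher and 25.7% lower. Directly against LPS, all 29 were lower in colony cells, beside 49.7% of all genes lower, 26.8% higher and 76.4% called. The cyclooxygenase gene Ptgs2 read 256 and 250.3 in colony cells, against 1.92 and 2.33 in control macrophages (6.90 ± 0.12), and the neutrophil chemokine gene Cxcl3 was at least 68.5-fold higher. Nos2, the nitric oxide synthase gene that LPS induces, read 269.5 and 269.8 in colony cells, 3420 and 3772 in LPS macrophages, and 118 and 103 in control macrophages. Tnf, the gene of tumour necrosis factor, read 19.6 and 18.1 in colony cells, 6927 and 6194 in LPS macrophages, and 239 and 226 in control macrophages.

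**Figure D4:**
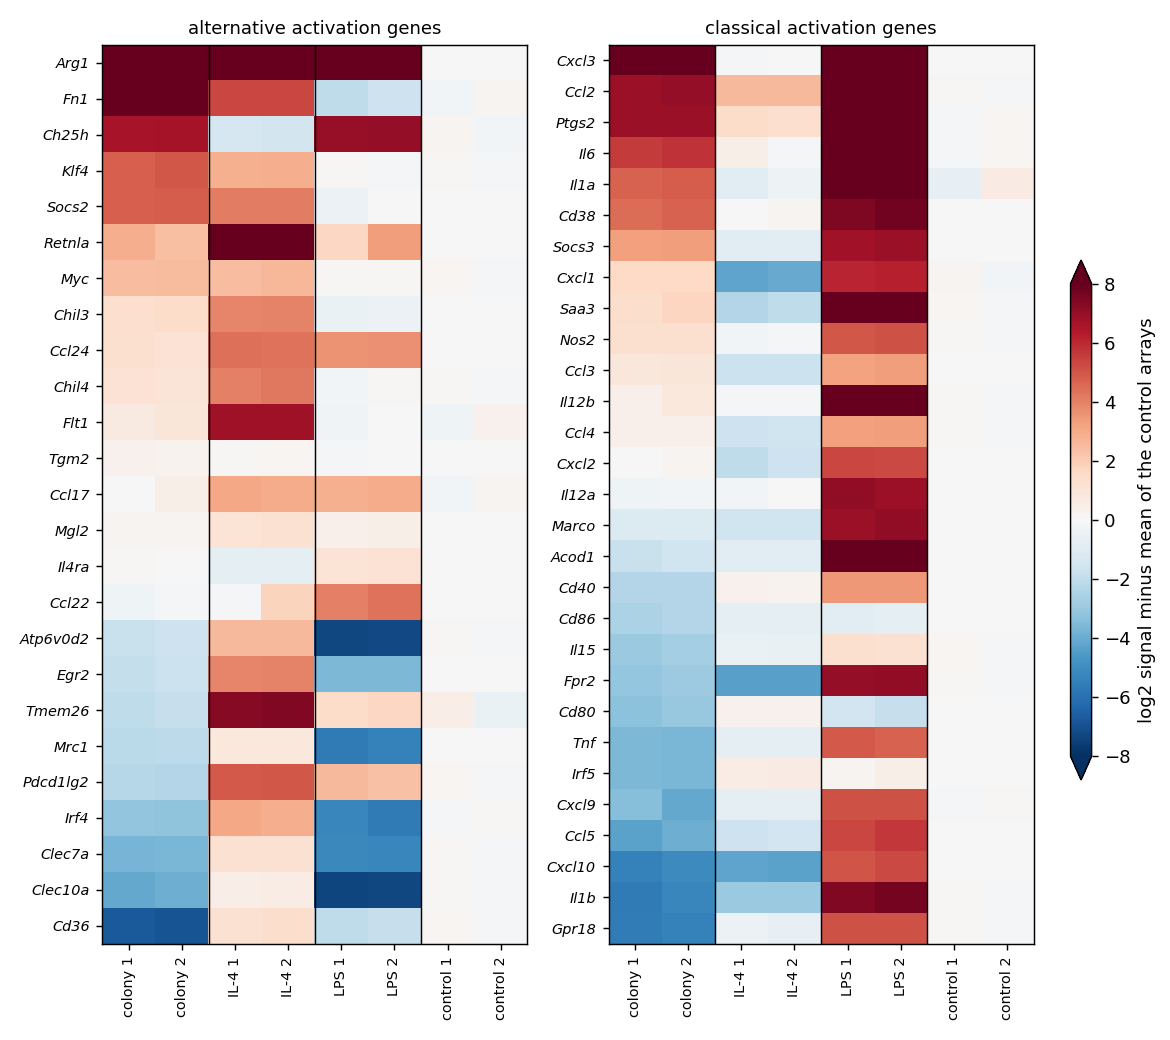
Log2 signal of alternative (left) and classical (right) activation genes on each of the 8 arrays minus the mean of the control arrays, with colony cells in the leftmost columns and control macrophages in the rightmost, and genes ordered by their change in colony cells. Colours end at 8 in either direction, and values of genes not well above background in control macrophages, such as Arg1, are no bounds. IL-4 raises most genes on the left and LPS most on the right, and the colony columns hold both red and blue genes on each side.

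Several ligands and their receptors moved in opposite directions, while Tgfb1 (-2.82) and its receptor gene Tgfbr1 (-2.93) both fell. Csf1, the M-CSF gene, read 1374 and 1339 in colony cells, against 70.9 and 76.0 in control macrophages (4.21 ± 0.07, adjusted p = 6.7e-07), while the gene of its receptor, Csf1r, fell by 3.73 ± 0.10. Cxcl12, the niche chemokine that retains progenitors in marrow, read 723 and 706 in colony cells, against 5.45 and 5.47 in control macrophages (7.03 ± 1.10, adjusted p = 0.002). Its receptor gene Cxcr4 read 21.2 and 19.4 in colony cells, against 822 and 830 in control macrophages (-5.35 ± 0.07), and the gene of its scavenging receptor, Ackr3, was at least 226-fold higher. Ccl2, which codes for the chemokine that draws monocytes, read 15800 and 17120 in colony cells, against 140 and 124 in control macrophages (6.97 ± 0.10), and its receptor gene Ccr2 fell by 3.89 ± 0.10. For platelet-derived growth factor B the order was turned: the ligand gene Pdgfb fell by 3.73 ± 0.09 and the stromal receptor gene Pdgfrb rose by 5.59 ± 0.09.

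**Figure D5:**
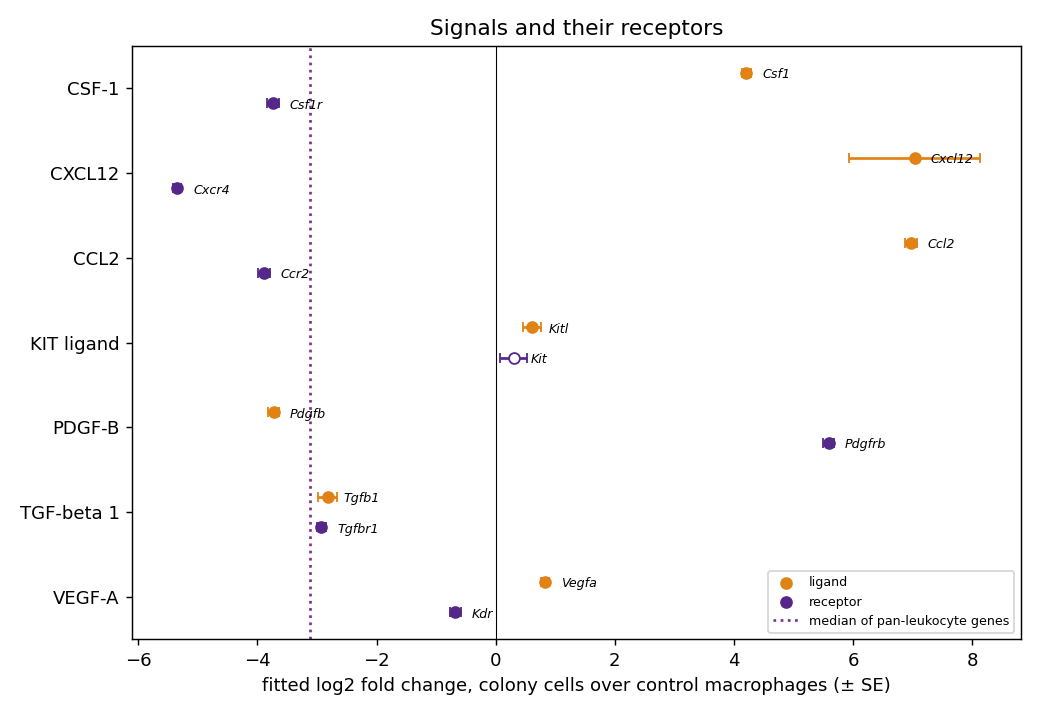
Fitted log2 fold change, colony cells over control macrophages, for 7 ligand genes (orange) and a receptor gene of each (purple), with bars for the standard error and an open symbol where a gene was not called. Csf1, Cxcl12 and Ccl2 lie right of 0 with their receptors left of it, Pdgfb and Pdgfrb lie the other way round, and the dotted line is the median of pan-leukocyte genes.

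Of 32 haematopoietic growth factors and niche signals, 17 were called higher and 7 lower, among them Csf2, which was not well above background on any of the 4 arrays. Vcam1, an adhesion molecule gene that holds blood cells on stroma and endothelium, read 7727 and 7160 in colony cells, against 6.58 and 7.55 in control macrophages (10.04 ± 0.09). Bmp4, well above background on 1 of 2 control arrays, rose by 7.74 ± 0.47 and Tgfb2 was at least 110-fold higher. The insulin-like growth factor gene Igf1 read 184 and 199 in colony cells, against 7849 and 7529 in control macrophages (-5.33 ± 0.07). All 5 kept probes of Igf1 were lower, with log2 fold changes from -5.56 to -1.59. KIT ligand (Kitl) rose less, with 70.1 and 71.4 in colony cells, against 41.1 and 52.3 in control macrophages (0.61 ± 0.15, adjusted p = 0.011). Of 33 angiogenic factors, 20 rose and 8 fell, with the guidance factor gene Sema3c at least 263-fold higher and the hepatocyte growth factor gene Hgf lower (-3.51 ± 0.10). Vegfa read 1687 and 1663 in colony cells, against 972 and 920 in control macrophages (0.82 ± 0.06).

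Of 15 CC chemokine genes, 9 rose and 3 fell. The monocyte chemoattractant gene Ccl7 read 5587 and 5825 in colony cells, against 34.3 and 29.2 in control macrophages (7.49 ± 0.09), while the T cell chemoattractant gene Ccl5 read 65.9 and 83.4 in colony cells, against 1307 and 1227 in control macrophages (-4.10 ± 0.16). Of 13 CXC chemokine genes, 6 rose and 5 fell. Of 18 chemokine receptor genes, 4 rose and 10 fell, with Cxcr3 at 2.24 and 1.99 in colony cells, against 288 and 268 in control macrophages (-7.04 ± 0.10).

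Signals of the TGF-beta and Wnt families were among those raised. Of 24 TGF-beta, activin and BMP genes, 13 rose and 8 fell (median 2.85, or 2.37 with bounds). Inhba, which codes for the activin A subunit, read 1226 and 1239 in colony cells, against 2.56 and 4.60 in control macrophages (8.49 ± 0.26), and Fst, whose product follistatin binds activin, was at least 143-fold higher. Bmp2 (-3.45 ± 0.16) and the receptor gene Tgfbr1 (-2.93 ± 0.08) fell. Of 24 Wnt pathway genes, 21 rose and 1, the antagonist gene Dkk2, fell (-0.54 ± 0.13). Rspo1, which codes for a potentiator of Wnt signals, read 1625 and 1757 in colony cells, against 0.37 and 0.39 in control macrophages, at least 1103-fold higher.

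Developmental regulators rose too. Of 29 Hox genes tested, 26 rose and none fell (median 5.51, or 4.49 with bounds). The genes spanned all 4 clusters, and Hoxb7 read 343 and 345 in colony cells, against 0.70 and 1.52, not well above background, in control macrophages, at least 225-fold higher. Hoxa9, a Hox gene of blood progenitors, rose by 1.14 ± 0.09. Of 14 imprinted growth regulators, 10 rose and 3 fell. Grb10 was at least 84.7-fold higher, and the cell cycle inhibitor gene Cdkn1c read 10.2 and 7.99 in colony cells, against 423 and 542 in control macrophages (-5.73 ± 0.16). Rhox5, an X-linked homeobox gene, read 13420 and 13930 in colony cells, against 0.55 and 0.65, not well above background, in control macrophages.

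Complement genes were split. Of 19, 8 rose and 8 fell. C1s2 and C1s1, genes of the protease of the first component, were at least 2906-fold and 2827-fold higher by the probe that stands for each gene. The other probe of C1s2 gave a log2 fold change of 6.25. C2 read 2942 and 2724 in colony cells, against 11.8 and 14 in control macrophages (7.78 ± 0.10). The genes of the recognition protein of the same component fell, with C1qb at 1664 and 1575 in colony cells, against 21030 and 21960 in control macrophages (-3.73 ± 0.07). C1s1 and C1s2 are close paralogs, and the longest run of bases shared by the probes that stand for them is 7. Lyz1 and Lyz2, lysozyme paralogs that both fell, have probes that share a run of 6 bases at most. Long matches of these probes to the RNA of the other paralog were not tested.

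Proliferation genes were higher. Of 31 DNA replication genes, 30 rose (median 2.12, or 2.06 with bounds), and of 30 mitosis genes, 27 rose (median 2.99). Rrm2, a ribonucleotide reductase gene, read 1518 and 1562 in colony cells, against 68.0 and 69.0 in control macrophages (4.49 ± 0.12). Ccnb2, which codes for cyclin B2, read 753 and 738 in colony cells, against 51.2 and 52.0 in control macrophages (3.85 ± 0.10). Pcna, the sliding clamp gene, went the other way (4230 and 4569 in colony cells, against 6815 and 6580 in control macrophages, -0.61 ± 0.08), and so did the centromere histone gene Cenpa (-1.59 ± 0.12).

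Genes of glycolysis and of the hypoxia response rose together, while interferon response genes fell. Of 30 glycolysis and hypoxia genes, 25 rose, 1 fell and 4 were not called (median 0.94). Egln3, which codes for an oxygen-sensing prolyl hydroxylase and is itself a hypoxia target, read 1306 and 1310 in colony cells, against 10.2 and 10.8 in control macrophages (6.96 ± 0.09). Adm, the adrenomedullin gene, rose by 5.54 ± 0.16, and Pfkfb4, a regulator gene of glycolysis, fell by 3.30 ± 0.07. Of 28 interferon response genes, 24 fell and 3 rose (median -1.49, against -3.11 for pan-leukocyte genes). Rsad2, which codes for the antiviral protein viperin, read 43.2 and 45.9 in colony cells, against 904 and 723 in control macrophages (-4.18 ± 0.12), and Cxcl10 read 24.8 and 30.2 in colony cells, against 1029 and 1044 in control macrophages. Isg20 (1.24 ± 0.08) and Ifi44 (0.72 ± 0.10) rose.

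Promoters of these lists were searched because the factors of both responses have known short motifs. The window was 250 bases before to 50 after each RefSeq start on GRCm38.p6, on both strands. The core of the hypoxia response element, ACGTG, stood in a promoter of 19 of 28 listed glycolysis and hypoxia genes with a promoter (67.9%), against 21.8% of all 27025 genes with one. The interferon-stimulated response element, searched as GAAA, any 2 bases and GAAA again, stood in 12 of 21 interferon response genes (57.1%), against 3.99% of all genes. The PU.1 motif GAGGAAGT stood in 3 of 18 pan-leukocyte genes, 1 of 14 macrophage core genes and 3 of 18 toll-like receptor and adaptor genes, against 3.69% of all genes. A match is a description of the letters, not a bound site. The lists were picked by known function, so these shares describe the lists and say nothing of colony cells. A few genes with a match lay on the other side of 0 from the median of their list. Shown are the 250 bases before the start of 2 genes that fell and 2 that rose, 5′ to 3′, with matches in capitals.
Rsad2, chr12:26456453-26456702, minus strand: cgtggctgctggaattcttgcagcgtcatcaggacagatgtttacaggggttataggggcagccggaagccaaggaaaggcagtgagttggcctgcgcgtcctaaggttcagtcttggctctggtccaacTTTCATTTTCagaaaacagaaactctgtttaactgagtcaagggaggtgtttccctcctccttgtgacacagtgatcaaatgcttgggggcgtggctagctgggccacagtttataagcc
Cxcl10, chr5:92348890-92349139, minus strand: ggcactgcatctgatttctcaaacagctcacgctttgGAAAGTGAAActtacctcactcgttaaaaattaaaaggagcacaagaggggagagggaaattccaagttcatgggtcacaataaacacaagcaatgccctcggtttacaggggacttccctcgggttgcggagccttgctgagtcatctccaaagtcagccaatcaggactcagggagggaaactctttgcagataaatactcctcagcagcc
Car9, chr4:43506776-43507025, plus strand: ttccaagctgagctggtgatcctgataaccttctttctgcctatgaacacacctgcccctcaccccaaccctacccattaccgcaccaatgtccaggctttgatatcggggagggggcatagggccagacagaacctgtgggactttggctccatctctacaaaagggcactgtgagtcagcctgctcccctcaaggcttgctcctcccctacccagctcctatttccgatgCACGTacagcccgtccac
Ankrd37, chr8:45999851-46000100, minus strand: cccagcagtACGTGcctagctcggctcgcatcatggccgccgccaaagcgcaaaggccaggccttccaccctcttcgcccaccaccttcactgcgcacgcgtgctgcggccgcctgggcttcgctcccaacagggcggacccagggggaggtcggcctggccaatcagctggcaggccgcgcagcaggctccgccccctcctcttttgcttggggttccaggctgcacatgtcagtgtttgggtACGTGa

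The carbonic anhydrase gene Car9 read 1354 and 1365 in colony cells, against 169 and 148 in control macrophages (3.1 ± 0.09), and Ankrd37 read 573 and 634 in colony cells, against 98.3 and 77.1 in control macrophages (2.79 ± 0.13). Both colony arrays lay above both control arrays for these genes, and below both for Rsad2 and Cxcl10.

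Cytosolic ribosomal protein genes moved by less than 1 on the log2 scale. Of 27, 4 rose, 11 fell and 12 were not called. The largest difference was that of Rpl10, with 33070 and 30980 in colony cells, against 59220 and 58480 in control macrophages (-0.88 ± 0.10), which was not called with quantile normalization. The median of the list was -0.09 and turned its sign under normexp and quantile normalization.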

How the data were processed

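RNA was measured on 8 Agilent 1-colour mouse arrays, 1 per sample, all on 1 slide and in 1 scan. The deposited intensity values were made with Agilent Feature Extraction 10.7.3.1, which subtracts background, per the file headers, and the number of arrays limits their precision. The authors' deposited log2 table of 34119 probes was used as an alternative, and Partek 6.4 and RMA are named per the submitters' processing notes. From the scanner files, log2 of the processed signal minus each array's 75th percentile was computed, control and outlier spots left out, and spots of a probe averaged. Probes well above background on both arrays of any group were kept (39411 of 55681), and the brightest over 8 arrays stood for its gene (26504 genes). limma 3.58.1 in R 4.3.3 (lmFit and eBayes) fitted 4 groups over 8 arrays with 4 residual degrees of freedom and Benjamini-Hochberg adjustment. Every adjusted p given is from this fit. Figures were drawn with matplotlib 3.10.9.

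Members and the 49 gene lists were chosen with earlier results of these data known. Genes named are the 12 highest and 12 lowest of those measured in both groups, the 12 highest bounds each way, up to 4 members of each list with the largest change and 2 against its median, all pan-leukocyte, Y, alternative activation and arginine genes, and a panel of macrophage genes. Chosen after their values were seen were Aldh1a2, Ankrd37, Car9, Cd2, Cdh5, Col1a1, Csf1, Csf2, Hoxa9, Ifi30, Il12b, Kit, Kitl, Lyz1, Pdgfrb, Pecam1, S100a8, Tgfb1 and, in figures, Csf3r, Hdc, Kdr, Mpo and S100a9. Alternatives were normexp background correction with an offset of 50, other scalings, filters, probes per gene, a replicate block and arrays left out.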

Additional observations from a re-analysis of the deposited data

How the results depend on the processing

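Of 18927 genes called, 6551 were higher and 12376 lower in colony cells, and between 16464 and 17620 were called without 1 of the 4 arrays. Genes called and at least 2-fold lower relative to the median of all genes numbered 2301 with normexp, against 3932. LPS replicate 2 had the most uneven spots, and 19598 genes were called without it, an alternative chosen after seeing the data. With the replicate number as a block 18536 were called (6432 higher, 12104 lower). Deviations of same-numbered colony and control arrays correlated at -0.16, so the numbers were not taken to pair the arrays. Of 308 named genes, 307 kept direction and call under the block. Directions turned with normexp for Ahsp (-0.35), Ccl17 (-0.32), Retnla (-0.29) and Vsig4 (-0.046), and with the mean of all probes for Flt1 (-0.12), Il4ra (-0.68), Itgam (-0.21), Mcam (1.63), Nkg7 (1.05), Plagl1 (1.44) and Rps3 (-0.32). Some list medians turned sign too. In the main fit most of these lay near 0, but that of endothelial genes was 0.84 and that of erythroid and megakaryocyte genes 0.68. With normexp the list medians were -0.19 for eosinophil, -0.21 for erythroid and megakaryocyte, -0.13 for endothelial, -0.031 for complement, -0.13 for CXC chemokine and 0.0073 for ribosomal protein genes. With quantile normalization they were -0.026 (eosinophil), 0.032 (classical activation) and 0.33 (ribosomal protein). With the median of each array they were -0.055 (eosinophil) and -0.0057 (cholesterol synthesis). In the deposited table they were -0.054 (eosinophil), -0.0022 (complement) and -0.0048 (cholesterol synthesis). With genes well above background on all 4 arrays they were -0.17 (eosinophil), -0.49 (endothelial) and -0.34 (complement). Without 1 array, medians ranged over -0.096 to 0.20 for eosinophil, -0.014 to 0.22 for CXC chemokine and -0.21 to 0.013 for ribosomal protein genes. The cause was not tested. Genes near background hold only bounds, since their signal carries no order.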
